A study of Mus musculus with 6 samples.

Results

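The genes described are 9 that make, store or specify the noradrenaline phenotype of sympathetic neurons. They are Dbh, Th, Ddc, Gch1, Slc18a1, Slc18a2, Phox2a, Hand2 and Gata3, and each was taken wherever a transcript cluster of the array carried exactly 1 gene symbol and that symbol was its own. All 9 were found, each through 1 cluster, among 16583 genes with such a name. The cells were Neuro2a, a mouse neuroblastoma line grown in serum-containing medium. In the USF knockdown group (3 arrays) they carried pcDNA6.2-GW/EmGFP-miR plasmids producing artificial microRNAs against Usf1 and Usf2, delivered by lipofection, and in the empty vector group (3 arrays) an empty vector. The time from transfection to harvest and the share of cells that took up a plasmid are not stated in the labels, so untransfected cells may contribute to the knockdown signal. Each array gave a log2 signal relative to the median of that cluster over the 6 arrays, so a value shows how the arrays differ and not how strongly a gene was expressed. The titles number the arrays as biological replicates but name no separate cultures, so the p-values rest on a spread between arrays that may be technical.

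Catecholamines are built from tyrosine. Tyrosine hydroxylase (Th) makes L-DOPA with tetrahydrobiopterin as cofactor, aromatic L-amino acid decarboxylase (Ddc) turns L-DOPA into dopamine, and dopamine beta-hydroxylase (Dbh), inside the secretory vesicle, turns dopamine into noradrenaline. GTP cyclohydrolase (Gch1) opens the synthesis of tetrahydrobiopterin, and the vesicular monoamine transporters (Slc18a1 and Slc18a2) load the vesicle. In the sympathetic lineage, from which neuroblastoma arises, PHOX2A, HAND2 and GATA3 are transcription factors that switch on and maintain these genes. USF1 and USF2 bind the E-box CACGTG, a member of the wider E-box class CANNTG, and the cyclic AMP response element TGACGTCA is a known control element of Th.

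Because the knocked-down proteins read the E-box, the RefSeq promoter windows (assembly GRCm38.p6, 250 bases before the annotated start to 50 after it) of the genes were searched for these 3 motifs. Each of these 3 reads the same on both strands, so 1 search covers both, and every CACGTG is also a CANNTG. The letter runs CCAAT and TATAAA were counted too, on both strands. Windows were matched by symbol for 8 of the 9 genes (all but Slc18a1), 9 windows in all since Ddc has 2. CACGTG was in 0 of the 8 genes' windows, against 8.09% of the 27025 genes with a window. CANNTG was in the windows of 6 of the 8 genes (Dbh, Th, Slc18a2, Phox2a, Hand2 and Gata3), against 75% of genes, which is the same share. TGACGTCA was in those of 2 (Th and Slc18a2), against 2.03% of genes. It was searched as an element already known in Th, so the Th match is no new result and the count of 2 measures no excess. CCAAT was in the windows of 5 of the 8 genes, against 41.1% of genes, and TATAAA in those of 2, against 15.7%. The windows of Dbh, the gene with the smallest p, and of Th and Slc18a2, which share TGACGTCA, are printed from 250 bases before the start to 10 after it (260 bases each), with CANNTG and TGACGTCA in capitals. They are Dbh at chr2:27165257-27165516 (plus strand), Th at chr7:142899986-142900245 (minus strand) and Slc18a2 at chr19:59260628-59260887 (plus strand).
Dbh: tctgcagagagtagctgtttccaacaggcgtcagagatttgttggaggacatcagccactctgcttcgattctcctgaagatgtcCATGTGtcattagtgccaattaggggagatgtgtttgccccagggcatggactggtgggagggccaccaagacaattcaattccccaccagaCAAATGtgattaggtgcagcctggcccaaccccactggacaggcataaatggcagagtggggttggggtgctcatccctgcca
Th: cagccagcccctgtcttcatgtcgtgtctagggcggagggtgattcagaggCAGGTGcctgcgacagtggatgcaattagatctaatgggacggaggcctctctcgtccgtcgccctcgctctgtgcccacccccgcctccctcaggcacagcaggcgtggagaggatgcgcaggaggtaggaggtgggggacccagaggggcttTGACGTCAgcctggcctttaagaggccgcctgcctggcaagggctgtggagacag
Slc18a2: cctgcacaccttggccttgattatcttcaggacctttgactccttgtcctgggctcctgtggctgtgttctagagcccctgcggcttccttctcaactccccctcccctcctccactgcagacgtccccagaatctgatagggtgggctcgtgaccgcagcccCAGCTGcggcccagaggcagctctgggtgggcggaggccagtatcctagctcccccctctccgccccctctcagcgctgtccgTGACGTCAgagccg
In the Dbh window CATGTG began 165 bases and CAAATG 73 bases before the start. In the Th window CAGGTG began 199 and TGACGTCA 45 bases before it, and in the Slc18a2 window CAGCTG began 87 and TGACGTCA 4 bases before it. A match is a run of letters and no measured binding site, and these windows leave out more distant elements.

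The labels were checked on the targets, which were lower on every knockdown array. Usf1 was at -0.28, -0.18 and -0.26 on the 3 knockdown arrays, against 0.18, 0.32 and 0.43 on the empty vector arrays, and Usf2 was at -0.22, -0.13 and -0.12, against 0.12, 0.28 and 0.27. Their folds were 0.682 and 0.770, with limma adjusted p over all genes of 0.320 and 0.348. Over all 16583 genes 1 passed an adjusted p of 0.05 in limma, the peptidase gene Dpp7 (0.00603% of genes), and 705 had an unadjusted p under 0.05 (4.25%). The standard deviation over all clusters was 0.159 on knockdown array 2 and between 0.0531 and 0.0780 on the other 5 arrays. The rounding of the deposited numbers places each cluster in a brighter class (log2 signal of 8 to 16 before it was centred) or a dimmer one (4 to 8), and on knockdown array 2 the dimmer clusters had a median of 0.071 and the brighter ones of -0.028.

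Of the 9 genes, Dbh was the one whose knockdown arrays all lay apart from the empty vector arrays. In limma 0 of 9 passed an adjusted p of 0.05, and 1, Dbh, had an unadjusted p under 0.05, which is 11.1% of the 9 beside 4.25% of all genes (2.65% in the lower direction). Groups that did not overlap were likewise found for 1 of 9, beside 10.3% of all genes (5.95% lower). With 9 genes, 1 in either count is close to these backgrounds. Changes (knockdown minus empty vector, log2) lay below 0 for 6 genes and above 0 for 3, with a median of -0.044 where the median over all genes was -0.00067. Under quantile normalization that median was -0.0062. The folds ran from 0.842 to 1.04.

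Dbh, in the dimmer class, makes noradrenaline from dopamine. No detection call was made, so whether the genes of the dimmer class, here Dbh, Th and Slc18a1, gave a signal above background is not known. Its signal was -0.12, -0.22 and -0.073 on knockdown arrays 1, 2 and 3, against 0.12, 0.073 and 0.13 on empty vector arrays 1, 2 and 3. All knockdown arrays were below all empty vector arrays, and knockdown array 2 was the lowest. The part of that array's wider spread in the Dbh value was not tested. The means were -0.14 ± 0.077 with knockdown and 0.11 ± 0.031 with empty vector (SD, n = 3 each). The change was -0.25 ± 0.05 (SE), 0.842-fold with a 95% interval of 0.776 to 0.915. Dbh ranked at 30 of the 16583 genes by p, with a limma unadjusted p of 0.00142 and an adjusted p of 0.759. An exact permutation test (two-sided) gave 0.10, below which 3 against 3 arrays cannot go. Leaving out 1 array at a time, its change stayed between -0.28 and -0.21.

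Th, which carries out the rate-limiting step, was also in the dimmer class. Its signal was -0.11, 0.062 and -0.10 on knockdown arrays 1, 2 and 3, against 0.088, 0.0012 and -0.0012 on the empty vector arrays. Knockdown arrays 1 and 3 were below every empty vector array, while knockdown array 2 was above 2 of the 3, so the groups overlapped. The change was -0.079 ± 0.059 (SE, 0.947-fold, 95% interval 0.861 to 1.04) with a limma adjusted p of 0.996 and an exact permutation p of 0.30. It was -0.14 ± 0.05 without knockdown array 2 (0.910-fold, limma adjusted p = 0.561). With array quality weights limma called Dbh (adjusted p = 0.005) and Th (0.0411) among 6.7% of all genes, in a fit that gave knockdown arrays 1, 2 and 3 weights of 33, 0.136 and 0.441 and so rested nearly on 1 knockdown array.

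Ddc, the decarboxylase, was in the brighter class and had -0.023, 0.017 and -0.13 on the knockdown arrays, against 0.10, 0.075 and -0.017 on the empty vector arrays. Knockdown array 3 was the lowest of the 6, and the groups overlapped through empty vector array 3. The change was -0.098 ± 0.056 (SE, 0.934-fold, 95% interval 0.854 to 1.02), with a limma adjusted p of 0.996 and an exact permutation p of 0.20. Leaving out knockdown array 2 gave -0.13 ± 0.05 (limma adjusted p = 0.637), and without knockdown array 3 -0.056 ± 0.057. In the fit without knockdown array 2, 3 of the 9 genes (Dbh, Th and Ddc, all lower) were at an unadjusted p under 0.05 in limma, beside 7.53% of all genes, and 0 of 9 passed an adjusted p of 0.05, beside 0.00603%. This set depended on the array left out. With all 6 arrays the unadjusted limma p was 0.219 for Th and 0.117 for Ddc. Without knockdown array 3 it was 0.458 for Th and 0.357 for Ddc.

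Gch1, the first enzyme of cofactor synthesis, was in the brighter class and varied most. It had -0.084, -0.44 and 0.041 on knockdown arrays 1, 2 and 3, against -0.018, 0.036 and 0.018 on the empty vector arrays. Knockdown array 2 stood far below the rest and knockdown array 3 above all others. The SD was 0.25 with knockdown and 0.027 with empty vector. The change was -0.17 ± 0.11 (SE, 0.887-fold, 95% interval 0.742 to 1.06; limma adjusted p = 0.996), and without knockdown array 2 it was -0.034 ± 0.050 (0.977-fold). Without knockdown array 3 it was -0.28 ± 0.10 (unadjusted p = 0.0225, limma adjusted p = 0.668), in a fit where 7.41% of all genes had an unadjusted p under 0.05. The value therefore rested on knockdown array 2.

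**Figure D1:**
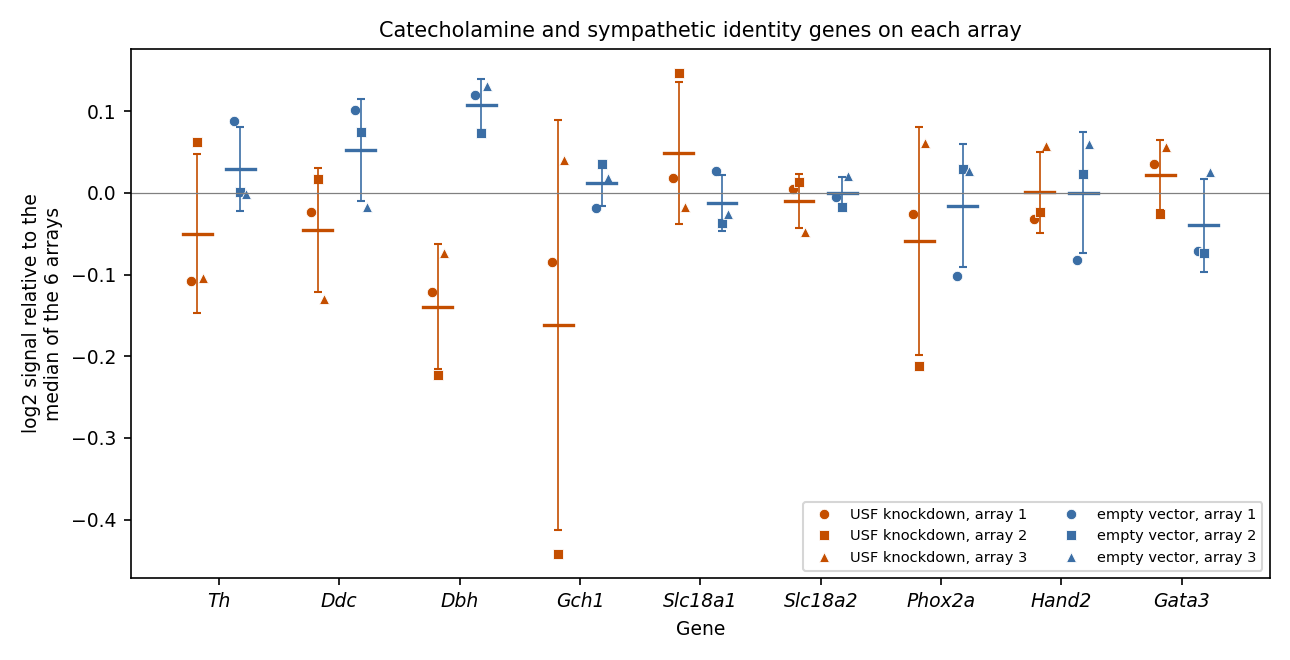
Log2 signal of the 9 genes, relative to each cluster's median over the 6 arrays (vertical axis), by gene, with knockdown left of empty vector. Symbols are single arrays, horizontal lines group means and bars ± SD (n = 3); the groups stand apart for Dbh alone, and Gch1 on knockdown array 2 lies at -0.44.

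The vesicular transporters had changes of opposite sign and small size. Slc18a1, the form typical of chromaffin and other endocrine cells and here in the dimmer class, was at 0.018, 0.15 and -0.018 on the knockdown arrays, against 0.027, -0.037 and -0.025 on the empty vector arrays. Knockdown array 2 was the highest, and the other knockdown arrays lay within the empty vector range. Its change was 0.061 ± 0.054 (SE, 1.04-fold, 95% interval 0.956 to 1.14; limma adjusted p = 0.996) and 0.012 without knockdown array 2. Slc18a2, the form of sympathetic and brain monoamine neurons, was in the brighter class and was at 0.0052, 0.013 and -0.048 on the knockdown arrays, against -0.0052, -0.017 and 0.021 on the empty vector arrays. The groups overlapped throughout. Its change was -0.0095 ± 0.041 (SE, 0.993-fold, limma adjusted p = 0.996). The 95% interval of 0.930 to 1.06 was the narrowest on the fold scale among the 9 genes.

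The 3 transcription factors, all in the brighter class, overlapped between the groups. Phox2a, a homeodomain activator of Dbh and Th, was at -0.026, -0.21 and 0.061 on the knockdown arrays, against -0.10, 0.029 and 0.026 on the empty vector arrays. As for Gch1, knockdown array 2 was the lowest and knockdown array 3 the highest. The change was -0.044 ± 0.076 (SE, 0.970-fold, 95% interval 0.859 to 1.10; limma adjusted p = 0.996), and it turned to 0.033 without knockdown array 2. Hand2, a basic helix-loop-helix factor that itself reads E-boxes, was at -0.032, -0.023 and 0.058 on the knockdown arrays, against -0.082, 0.023 and 0.060 on the empty vector arrays. The ranges lay over each other, with a change of 0.00063 ± 0.053 (SE, 1.00-fold, 95% interval 0.919 to 1.09; limma adjusted p = 0.999). Gata3, a zinc finger factor needed for sympathetic neuron survival in the mouse, was at 0.036, -0.025 and 0.056 on the knockdown arrays, against -0.071, -0.074 and 0.025 on the empty vector arrays. Knockdown arrays 1 and 3 were above every empty vector array and knockdown array 2 was not. The change was 0.062 ± 0.048 (SE, 1.04-fold, 95% interval 0.966 to 1.13; limma adjusted p = 0.996). An adjusted p above the threshold does not show that these genes were alike in both groups, and the intervals give the changes that these arrays leave possible.

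**Figure D2:**
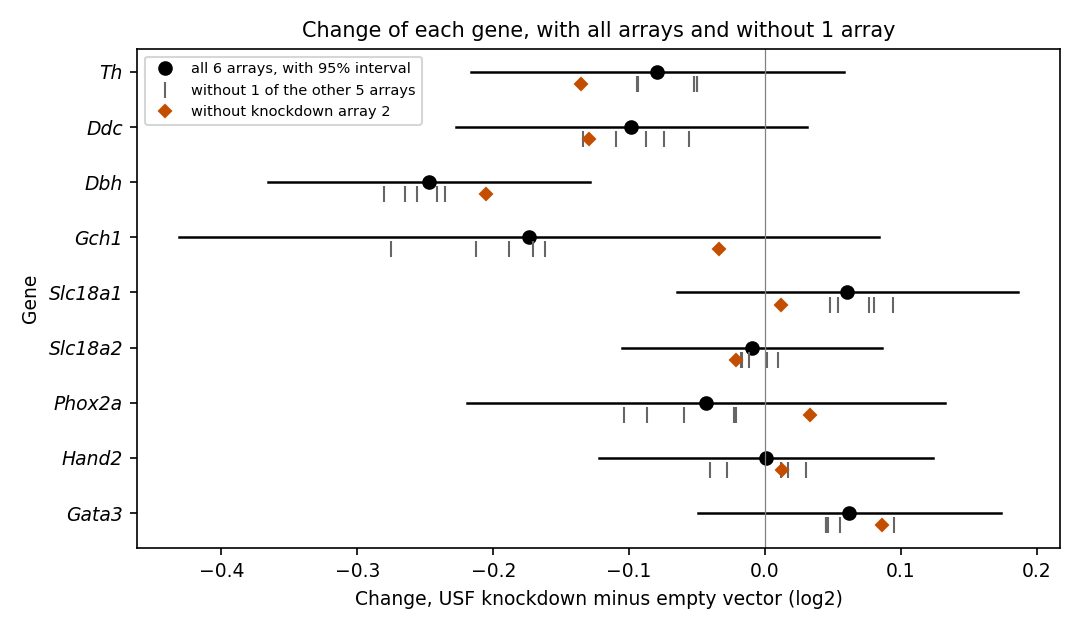
Log2 change of each gene, knockdown minus empty vector (horizontal axis), with its 95% interval over all 6 arrays (black). Ticks are fits without 1 of the other 5 arrays and diamonds fits without knockdown array 2; the interval of Dbh lies below 0, those of the other 8 genes cross it, and the diamond of Phox2a is at 0.033.

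The spread between arrays was wider in the knockdown group. Over all clusters the standard deviation was 0.159 on knockdown array 2, and 0.0531 and 0.0780 on knockdown arrays 1 and 3. On the empty vector arrays it was 0.0682 to 0.0713. The SD of a group was larger with knockdown for 7 of the 9 genes, as it was for 65.5% of all genes, with a median SD over the 9 of 0.077 with knockdown and 0.051 with empty vector (over all genes 0.073 and 0.051). Knockdown array 2 was the highest or the lowest of the 6 arrays for 4 of the 9 genes, lowest for Dbh, Gch1 and Phox2a and highest for Slc18a1, as against 64.0% of all genes. Over all genes the median change was 0.011 in the dimmer class and -0.011 in the brighter one.

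Genes around the pathway gave 2 others at an unadjusted p under 0.05 among 51 measured, a share no larger than the 4.25% of all genes, and 0 past an adjusted p of 0.05 in limma. Of 7 further enzymes and regulators of catecholamine and tetrahydrobiopterin synthesis measured of 8 listed, 3 were above and 4 below 0, with a median of -0.012, which was 0.014 under quantile normalization and from -0.0232 to 0.0555 without 1 array. Qdpr, the reductase that regenerates tetrahydrobiopterin, was at 0.071, 0.028 and 0.12 on the knockdown arrays, against -0.028, -0.061 and -0.070 on the empty vector arrays. Its groups did not overlap, with a change of 0.12 ± 0.04 (SE, unadjusted p = 0.0210, limma adjusted p = 0.996). Gchfr, the feedback regulator of GTP cyclohydrolase, had 0.094 ± 0.047 (SE), also without overlap. Pts, the next enzyme after Gch1, had -0.12 ± 0.06, and each had a limma adjusted p of 0.996. Without knockdown array 2 Gchfr was at 0.058 and Pts at -0.064. Groups that did not overlap were found for 2 of the 7, Qdpr and Gchfr (both higher with knockdown), beside 10.3% of all genes. Of the genes for catecholamine uptake and breakdown 3 of 8 listed were measured, with changes of -0.067 ± 0.051 for the aldehyde dehydrogenase Aldh2, 0.066 ± 0.097 for the noradrenaline transporter Slc6a2 and -0.030 ± 0.081 for the dopamine transporter Slc6a3 (limma adjusted p = 0.996 each). Aldh2 was at -0.039, Slc6a2 at -0.051 and Slc6a3 at -0.11 without knockdown array 2.

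Proteins of dense core granules, the organelles that hold catecholamines, were measured for 11 of 12 listed, with 3 above and 8 below 0 and a median of -0.031. Chgb, a granin that Dbh shares its vesicle with, was at -0.012, -0.085 and -0.017 on the knockdown arrays, against 0.012, 0.15 and 0.17 on the empty vector arrays. The groups did not overlap, but empty vector array 1 lay near the knockdown arrays. The change was -0.15 ± 0.05 (SE, 0.903-fold, unadjusted p = 0.0280, limma adjusted p = 0.996). The related granin Chga was at 0.052 ± 0.040 (SE), also without overlap and in the opposite direction, and the carboxypeptidase Cpe at -0.082 ± 0.053 (limma adjusted p = 0.996 each). Cpe was at -0.052 without knockdown array 2, where the unadjusted limma p of Chgb was 0.0501. Of the 11 genes, 1 was without overlap in the higher direction (Chga) and 1 in the lower (Chgb), beside 10.3% of all genes in either direction.

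Of 13 other sympathoadrenal transcription factors measured of 15 listed, 7 were above and 6 below 0 with a median of 0.0035, and 0 had an unadjusted p under 0.05. That median lay below 0 without any 1 of the 6 arrays (-0.0262 to -0.0041) and with array weights (-0.012). Those with the smallest p were the homeodomain factor Meis1 (0.13 ± 0.07, SE), the zinc finger factor Insm1 (-0.083 ± 0.048) and Sox11 (-0.067 ± 0.070), each with a limma adjusted p of 0.996. Without knockdown array 2 Meis1 was at 0.20 and Insm1 at -0.12, both at an unadjusted p under 0.05 in a fit where 7.53% of all genes were, and Sox11 was at -0.010. Receptors for growth factors of sympathetic neuroblasts (8 measured of 10 listed, median -0.021) had changes from -0.060 to 0.069, and 0 had an unadjusted p under 0.05. The receptors with the smallest p were Gfra3 (0.069 ± 0.082, SE), Alk (-0.036 ± 0.043) and Ntrk3 (-0.030 ± 0.048). Without knockdown array 2 Gfra3 was at -0.0088 and Ntrk3 at 0.010.

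Genes of other transmitter identities lay in the dimmer class and 0 had an unadjusted p under 0.05. Factors of midbrain dopamine neurons (7 measured of 8 listed, median -0.0071) were led by Foxa2 (-0.069 ± 0.045, SE), Nr4a2 (-0.050 ± 0.056) and Lmx1b (0.057 ± 0.085). Groups that did not overlap were found for 1 of the 7, Foxa2 (lower with knockdown), beside 10.3% of all genes. The cholinergic genes (3 measured of 4 listed, median 0.067) were the acetylcholine vesicle transporter Slc18a3 (0.12 ± 0.08, SE), the synthesising enzyme Chat (0.067 ± 0.061) and the esterase Ache (-0.033 ± 0.073). Without knockdown array 2 Nr4a2 was at -0.085, Lmx1b at -0.028, Slc18a3 at 0.034 and Chat at 0.0040, and Ache turned to 0.047. The median of the midbrain list was then -0.085 (from -0.0853 to 0.0333 without 1 array) and that of the cholinergic list 0.034. The medians of both lists on knockdown array 2 were 0.16 and 0.18, above those on every other array.

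**Figure D3:**
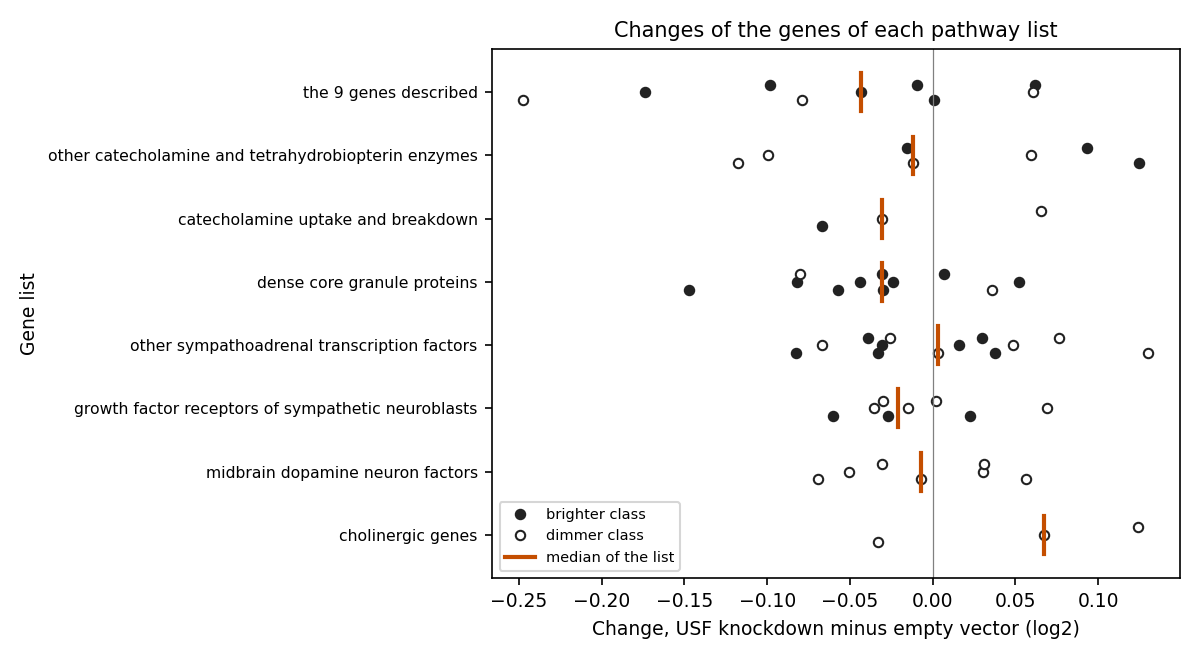
Log2 change of each measured gene, knockdown minus empty vector (horizontal axis), by gene list, with filled points for the brighter class and open points for the dimmer class. Orange bars are list medians, which lie between -0.044 and 0.067, and Dbh is the leftmost point of all at -0.25.

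The cell type label was set against the brightness classes of marker genes. A class depends on the probes as well as on the RNA, so the counts are a rough description, and 7353 of all 16583 genes were in the brighter class. Of the neuron markers 8 of 11 measured were in the brighter class, and of the sympathetic neuroblast markers 8 of 10, the dimmer ones being Dbh and Th. Of the glial markers 0 of 8 were brighter, of the fibroblast markers 0 of 7, of the macrophage and blood cell markers 0 of 6, and of the endothelial and epithelial markers 2 of 8 (Kdr and Cdh1). The median changes of these 4 other lists were 0.076, 0.075, 0.057 and 0.028. Their medians were 0.13, 0.24, 0.044 and 0.079 on knockdown array 2, and between -0.090 and 0.043 on knockdown arrays 1 and 3, against -0.072 to 0.048 on the empty vector arrays. The glial, the fibroblast, and the endothelial and epithelial lists had their highest median on knockdown array 2. The macrophage and blood cell list was above 0 on each knockdown array (0.043, 0.044 and 0.016). On the empty vector arrays it was below 0 (-0.034, -0.025 and -0.035). The part of other cells in the values of the 9 genes was not tested. In bulk RNA fewer cells expressing a gene and less RNA per cell cannot be told apart.

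The genes whose values followed Dbh most closely over the 6 arrays were Galnt7 (Pearson r = 0.995), Purb (r = 0.993) and Ccdc112 (r = 0.991). Galnt7 encodes an enzyme of O-linked glycan synthesis and Purb a nucleic acid-binding protein. With 6 arrays in 2 groups, these 3 were picked as the highest of 16574 other genes, of which 77 had an r over 0.95. How often such values arise by chance was not tested. Galnt7 was at -0.16, -0.34 and -0.11 on the knockdown arrays, against 0.13, 0.11 and 0.19 on the empty vector arrays. Its change was -0.35 ± 0.06 (SE, 0.786-fold, limma adjusted p = 0.559). Purb had a change of -0.18 ± 0.05 and Ccdc112 of -0.27 ± 0.06 (SE, limma adjusted p = 0.996 and 0.759). All 3 lay in the brighter class. All, like Dbh, were lowest on knockdown array 2, which follows from picking them by their r with Dbh and is no separate result. The targets followed another order, with Usf1 and Usf2 lowest on knockdown array 1.

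**Figure D4:**
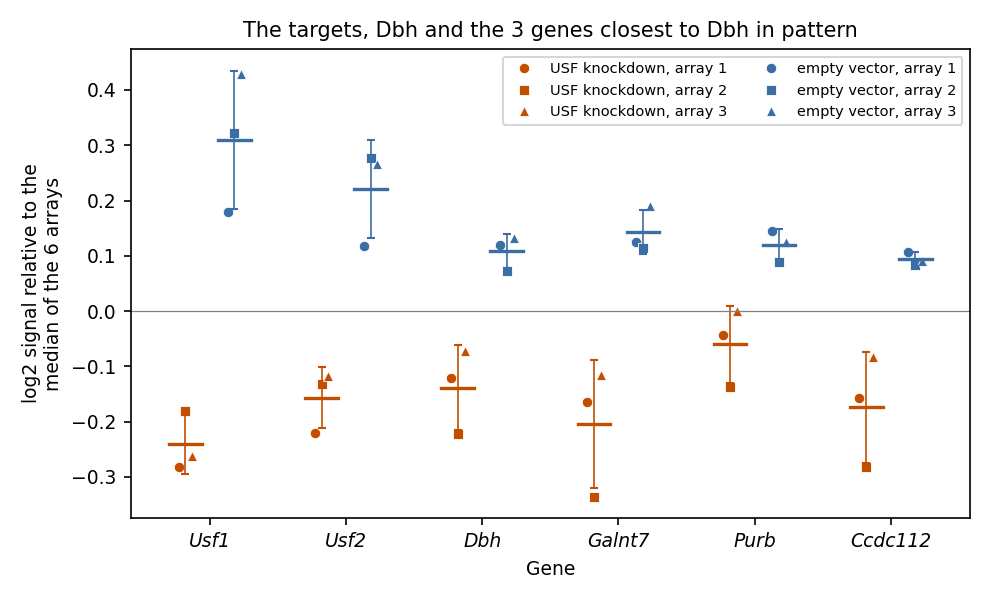
Log2 signal of Usf1, Usf2, Dbh and the 3 genes closest to Dbh in pattern, relative to each cluster's median over the 6 arrays (vertical axis), with knockdown left of empty vector. Symbols are single arrays, horizontal lines means and bars ± SD (n = 3). In each gene the 3 knockdown arrays lie below the 3 empty vector arrays. Dbh is lowest on knockdown array 2, as are Galnt7, Purb and Ccdc112, which were picked for their likeness to it.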

How the data were processed

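RNA of 6 Neuro2a samples was labelled with the Ambion WT Expression kit, then the Affymetrix WT Terminal Labeling kit, and hybridised to Mouse Gene 1.0 ST arrays, per the labels. The authors deposited 1 table of 22891 clusters on a scale read here as log2, each with a median of 0 over the arrays. For the background correction, the normalization and the log base, the sources used here give nothing. The log2 scale and the brightness class come from the single-precision steps (4.77e-07 or 9.54e-07, tolerance 0.05 of a step) between arrays, read where a value exceeded 0.001 in size. This classed 9975 clusters as brighter, 12900 as dimmer and 16 as unknown. The class is not a measured level, and a chance fit can misplace a few. A gene counts as brighter where most of its clusters do, and as dimmer otherwise.

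Gene names are those of the platform annotation. Among the clusters 18087 had 1 symbol, 1145 several and 3659 none. Of the named ones 18023 matched a RefSeq gene (GRCm38.p6) by Entrez identifier, with 0 changed symbols. Clusters of 1 gene were averaged, giving 16583 genes. Groups and replicate numbers came from the titles. Changes are knockdown minus empty vector from limma 3.58.1 (lmFit, then eBayes; R 4.3.3). P-values were adjusted by Benjamini-Hochberg over all genes, with 0.05 as the threshold. Precision is limited by the number of arrays, with a median standard error of 0.0561. Exact permutation tests were two-sided, and figures were made with Python 3.11.15 and matplotlib 3.10.9. The fit was tested on simulated data.

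The members and gene lists were chosen with earlier results of these data known. Named genes are the 9 members, the targets, up to 3 genes of each pathway list with the smallest p, and the 3 genes most like the leading member. A few genes outside it complete a count or are marked as such. The replicate numbers were not used to pair the arrays in the main fit. Deviations from the group means correlated over genes at 0.0031, 0.082 and 0.036 for the same numbers 1, 2 and 3. Between different numbers the correlations ran from -0.0942 to 0.0535. They cannot settle whether arrays were paired, since deviations within a group depend on each other. Alternatives were quantile normalization, median centring, robust eBayes, array weights, the brighter class alone, single clusters, the replicate number as a block and each array left out.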

Additional observations from a re-analysis of the deposited data

How the results depend on the processing

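The sign of Dbh, Th, Ddc, Gch1, Slc18a1, Gata3, Usf1 and Usf2 was the same under every alternative that held them. Dbh had an unadjusted p under 0.05 in limma in 12 of 12 alternatives, with changes of -0.28 to -0.21 and adjusted p of 0.005 to 1. Quantile normalization and median centring gave it -0.24 and -0.25. Signs turned for 3 small changes: Phox2a was from -0.1037 to 0.0330 without 1 array; Hand2 was -0.0485 with array weights and from -0.0406 to 0.0305 without 1 array; Slc18a2 was 0.0023 with array weights and from -0.0211 to 0.0097 without 1 array. The causes were not tested. With array quality weights limma called 2 of the 9 genes, Dbh (adjusted p = 0.005) and Th (0.0411), among 1111 genes (6.7% of all), but the weights were 33, 0.136 and 0.441 on knockdown arrays 1, 2 and 3, so the knockdown mean was in effect 1 array. In the other 12 alternatives 0 of the 9 passed (0 of 6 among the brighter genes). Without 1 array the count over all genes was 0 to 1, with 369 to 1248 genes at an unadjusted p under 0.05.

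The replicate number as a replicate block gave 0 genes over all (636 at an unadjusted p under 0.05) and left the changes as they were, with Dbh at an unadjusted p of 0.00193. Not every array correlated best with its own number. The count of other pathway genes at an unadjusted p under 0.05 was 3 without knockdown array 2 (Qdpr, Meis1 and Insm1), an alternative chosen after seeing the data, and 2 with it (Qdpr and Chgb), each a share of the 51 below that of all genes in the same fit (7.53% and 4.25%). Dbh, Th and Slc18a1 lie in the dimmer class and could not be tested among the brighter genes alone.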

Other observations

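Among the neuron markers, which were read to check the cell type, more had groups that did not overlap than the 10.3% of all genes. They were 5 of 11, named after their values were seen and changed in both directions, and this excess was not tested. The RNA-binding protein Elavl4 (-0.13 ± 0.04, SE, unadjusted p = 0.0163), the microtubule protein Mapt (-0.10 ± 0.05) and the growth cone protein Gap43 (-0.080 ± 0.043) were lower on all 3 knockdown arrays. The neurofilament gene Nefm (0.10 ± 0.05) and the stathmin Stmn3 (0.012 ± 0.038) were higher on all 3. In limma 0 of the 11 passed an adjusted p of 0.05, beside 0.00603% of all genes. An unadjusted p under 0.05 was found for 1 of the 11, beside 4.25% of all genes. Elavl4 was at -0.073, -0.075 and -0.031 on the knockdown arrays, against 0.031, 0.079 and 0.092 on the empty vector arrays. The median change of the list was 0.017.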
